A study of Mus musculus with 4 samples.

Results

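The 36 genes described here encode the autophagy machinery of the mouse, from the kinase complex that starts the process to the receptors that bring cargo into it. They were taken from the count table by gene symbol, with earlier results of these data known, and all 36 were found among its 53465 genes. They were measured by RNA-seq in myeloid-derived suppressor cells (MDSCs), immature myeloid cells able to restrain T cells, with and without EGCG, a green tea catechin. The MDSCs came from spleens of male BALB/c mice that carried tumors of the transplantable mammary carcinoma line 4T1, injected when the mice were 6 weeks old. They were pulled out with magnetic beads against Gr-1, which Ly-6G and Ly-6C both carry, so that granulocytic and monocytic cells were sorted together. The control group (2 libraries) was kept for 6 h in medium alone, and the EGCG treatment group (2 libraries) for 6 h in medium with EGCG at 5 μg/mL. Both groups therefore consist of cells from tumor-bearing hosts, and cells of tumor-free mice were not analysed here. The sample labels place the sacrifice of the mice on day 21 after tumor injection and the methods place the sorting on day 14. The sources used here do not say whether a group's libraries derive from separate mice or wells, so p-values measure only the spread between these libraries, which may be technical.

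Autophagy delivers parts of the cytoplasm to the lysosome for breakdown. A kinase complex around ULK1 and a lipid kinase complex around Beclin 1 start a cup-shaped membrane, the phagophore, which grows as ATG2 and ATG9 supply lipids and WIPI proteins mark the site. Small ubiquitin-like proteins of the ATG8 family (LC3 and GABARAP) are then attached to the lipid phosphatidylethanolamine in that membrane by a conjugation system of ATG3, ATG5, ATG7, ATG10, ATG12 and ATG16L1, and receptors such as p62 tether cargo to them. In myeloid cells the process bears on survival, differentiation and cytokine release. RNA levels show the supply of these components and not the rate at which cargo is degraded, since much of the control acts on proteins.

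ATG8 proteins are made with extra residues behind a glycine, and ATG4 proteases cut after that glycine before the protein can be joined to lipid. The last 30 coding bases of the 4 family members described here are shown because they hold that site, which links the ATG8 genes to the ATG4 genes described further on. They were read from the principal GENCODE M21 transcripts (GRCm38), run 5′ to 3′ and end with the stop codon, and capitals mark the last glycine codon.
Map1lc3b: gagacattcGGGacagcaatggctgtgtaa
Gabarap: tacagtgatgaaagcgtctatGGTctgtga
Gabarapl1: tacagtgatgaaagtgtctatGGAaaatga
Gabarapl2: tacagcggagagaacacttttGGCttctga
In Map1lc3b the glycine is codon 120 of 125 and is followed by 5 further codons, whereas in Gabarap, Gabarapl1 and Gabarapl2 it is codon 116 of 117 and is followed by 1. These stretches lie on the plus strand at chr8:121596741-121596770 (Map1lc3b), chr11:69994495-69994524 (Gabarap), chr6:129541138-129541167 (Gabarapl1) and chr8:111952376-111952405 (Gabarapl2), each within 1 exon.

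The libraries held between 17767318 and 18390385 reads counted on genes. The labelled cell type matched its markers: the 11 neutrophil and MDSC markers, S100a8, S100a9, Itgam and Ly6g among them, summed to 59842 and 71436 CPM (counts per 1000000 counts of a library, scaled by TMM) in the control libraries and to 80168 and 70850 CPM in the EGCG libraries. Markers of other cells were present at lower levels. The 7 splenic macrophage markers summed to between 299 and 381 CPM and were lower in both EGCG libraries, the 6 B cell markers to between 378 and 423 CPM, and the 5 endothelial markers to between 99.5 and 135 CPM, lower in both EGCG libraries. Sums of the 6 monocyte markers (929 to 1016 CPM) and the 5 platelet markers (34.2 to 43.6 CPM) were also lower in both EGCG libraries. So was that of the 6 basophil and eosinophil markers (965 to 1258 CPM), most of it Prg2. In these 3 lists Ly6c2 (0.12), Cpa3 (0.16) and Prss34 (0.024) had log2 fold changes above 0. The sum of the 7 T and NK cell markers (95.5 to 109 CPM), most of it Cd3d, was higher in both. Log2 fold changes were 0.14, 0.11 and 0.14 for Cd3d, Cd3e and Cd3g. Those of Cd8a, Cd4 and Nkg7 were -0.24, -0.056 and -0.050. The summed B cell, erythroid, dendritic cell and 4T1 markers overlapped between the groups. Among the 4T1 markers, Epcam (3.56 and 3.30 CPM against 5.07 and 5.54 CPM) lay above control in both EGCG libraries. Cdh1 (22.0 and 20.5 CPM against 16.2 and 19.3 CPM) lay below. Krt18 was at 1.04 and 0.56 CPM against 1.32 and 1.06 CPM. Krt8 and Cldn4 had at most 2 and 3 counts in any library, too few to be tested. The endothelial markers Cdh5, Kdr, Plvap and Tek had log2 fold changes of -0.87, -0.75, -0.65 and -1.1, and the more abundant Pecam1 had -0.26. None of the markers had an adjusted p under 0.05 in edgeR, and the part of these cells in the results below was not tested. Counts of control replicate 2 were about as close to those of EGCG replicate 2 (mean chi-square per gene of 6.70) as to those of control replicate 1 (6.85), while control replicate 1 stood further from EGCG replicates 1 (16.0) and 2 (12.4). As these are bulk samples, fewer cells of a type and less RNA per cell cannot be told apart.

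No autophagy gene passed the test for a difference between the EGCG treatment group and the control group. All 36 had enough counts to be tested, and 0 of 36 had an adjusted p under 0.05 in edgeR's quasi-likelihood test (Benjamini-Hochberg adjustment over the 14682 tested genes), against 0.150% of all tested genes (0.0136% higher and 0.136% lower). Adjusted p for the members spanned 0.195 to 0.997. At an unadjusted p under 0.05 there were 4 members, Atg101, Gabarap and Map1lc3b with higher and Atg2b with lower values under EGCG, beside 12.2% of all tested genes (5.22% higher and 7.02% lower). DESeq2 also called 0 of the 36 and placed 4 under an unadjusted p of 0.05, beside 922 of the 14682 tested genes. Fitted log2 fold changes were above 0 for 22 members and below 0 for 14, beside 50.6% of all tested genes above 0. Their median was 0.029, beside 0.0031 over all tested genes. With library size as the only scaling, 16 members were above 0 and 20 below 0. The median over all tested genes was then also lower, at -0.032. The groups did not overlap in 18 members, beside 42.7% of all tested genes. In 12 of them both EGCG libraries lay above both control libraries (21.5% of all tested genes) and in 6 both lay below (21.2%). Control replicate 1 was the lowest of the 4 libraries in 9 of those 12. In genes of this kind the lowest library is always a control library. The same share was not counted over all tested genes, so 9 of 12 cannot be read as a trait of the members.

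The precision given here rests on the spread between these libraries, which may be technical. Standard errors of the log2 fold changes ran from 0.073 to 0.27, with a median of 0.084. The lowest count of any member in any library was 36 (Atg10), and the next lowest member had at least 143 counts. The 95% interval of 35 of the 36 fold changes lay within a 1.5-fold change in either direction. The exception was Atg10, with an interval from -0.68 to 0.50 on the log2 scale.

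**Figure D1:**
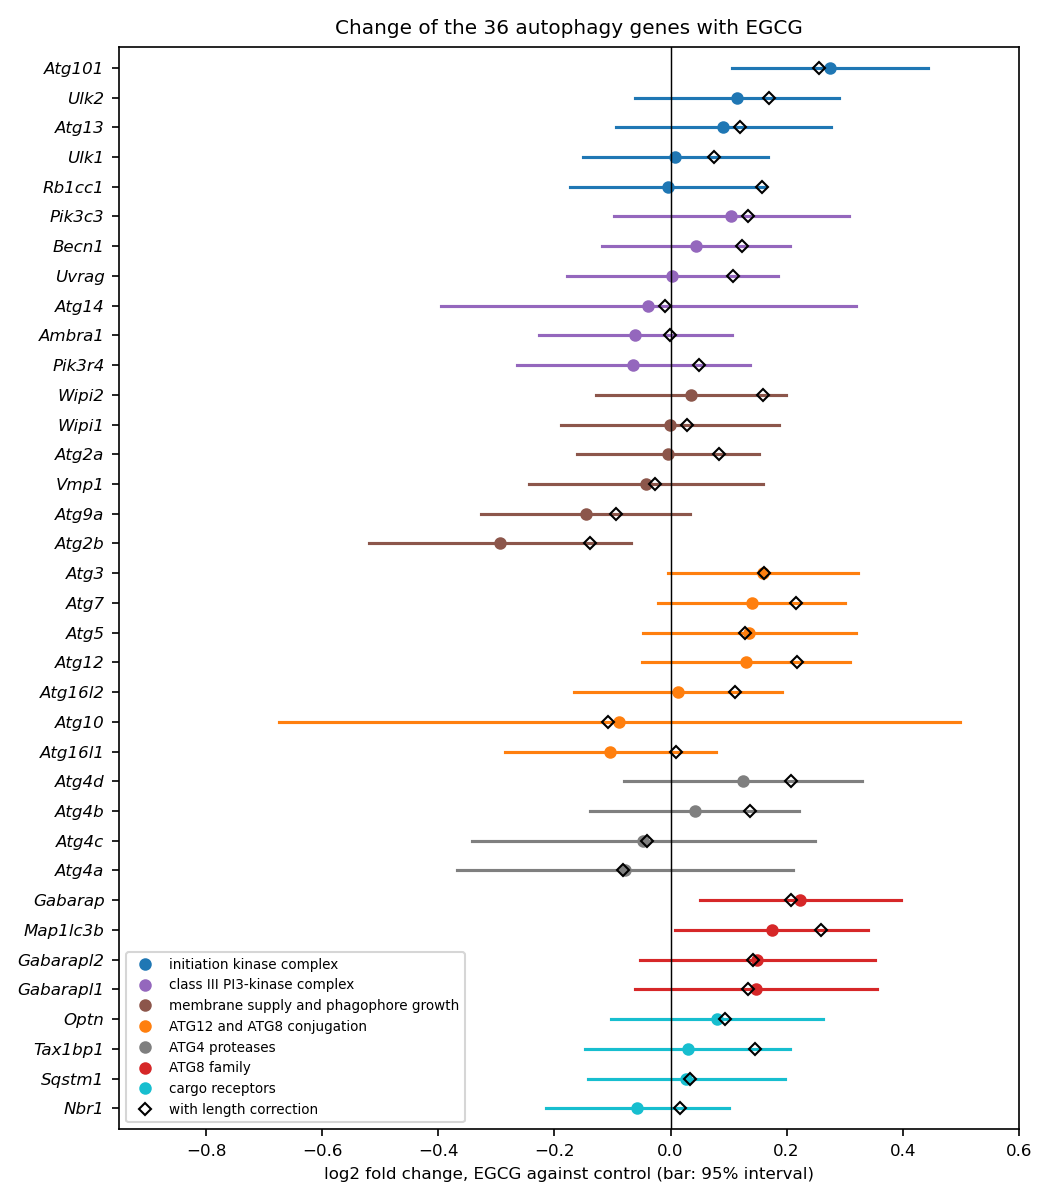
Log2 fold change (EGCG against control) of the 36 autophagy genes, grouped by role. Filled points are the fitted values, bars their 95% intervals from edgeR's quasi-likelihood fit over 2 libraries against 2, and open diamonds the values after correction for exonic length. The intervals of Atg101, Gabarap and Map1lc3b lie above 0 and that of Atg2b below 0, before adjustment for multiple tests.

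The machinery was expressed unevenly. To compare genes, CPM were divided by the length of the principal transcript in kilobases, and on this scale the members spanned a 392-fold range. Sqstm1, which encodes the cargo receptor p62, averaged 526 CPM per kb over the 4 libraries and Gabarap averaged 525 CPM per kb, so that their libraries overlapped. Both stood apart from the next genes, Tax1bp1 (127 CPM per kb) and Map1lc3b (123 CPM per kb), whose libraries again overlapped each other. Atg3 (110.4 CPM per kb), Atg101 (69.6 CPM per kb) and Vmp1 (60.4 CPM per kb) came next. Atg7 (49.7 CPM per kb) and Ulk1 (48.0 CPM per kb) led the middle of the order, which ran through Becn1 (34.1 CPM per kb) and Pik3c3 (10.1 CPM per kb) down to Atg4a (5.21 CPM per kb). At the lower end were Atg4c (3.83 CPM per kb), Atg2b (3.34 CPM per kb), Atg14 (2.41 CPM per kb) and Atg10, the lowest, at 1.34 CPM per kb. Of the 35 neighboring pairs in this order, 15 were separated in all 4 libraries and the others overlapped. Dividing by the length of all exons of a gene in place of its principal transcript put Gabarap before Sqstm1 and changed the rank of several genes. The largest move was that of Wipi2, from 42.2 CPM per kb of principal transcript (1959 bases, rank 10) to 7.84 CPM per kb of exon (10543 bases, rank 24). Atg16l1 went from rank 23 to 30, Ulk2 from 29 to 22, Wipi1 from 14 to 20, Map1lc3b from 4 to 7 and Tax1bp1 from 3 to 6, so these places depend on the length used. Of the 36 members, 32 had a mean CPM (not divided by length) above the median of 14.2 CPM of all tested genes.

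**Figure D2:**
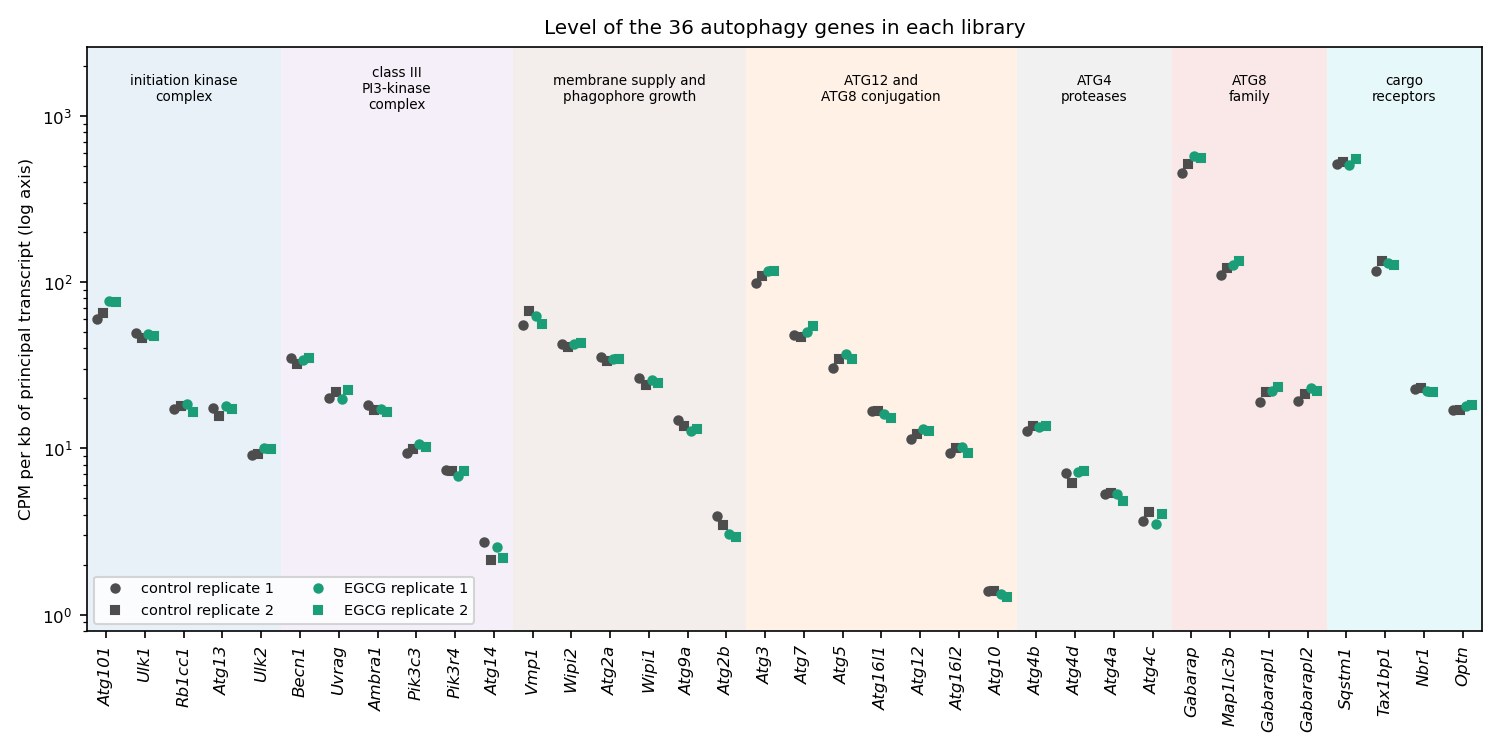
Level of each autophagy gene in each of the 4 libraries, in CPM per kb of principal transcript on a log axis, grouped by role and ordered by level within a role. Circles are replicate 1 and squares replicate 2, in grey for control and green for EGCG. Sqstm1 and Gabarap sit highest, with means of 526 and 525 CPM per kb, and Atg10 sits lowest, with a mean of 1.34 CPM per kb.

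The 4 ATG8 genes among the members all had higher values in both EGCG libraries, as did 21.5% of all tested genes. The groups overlapped for Map1lc3a, a further ATG8 gene that was listed with the rest of the pathway. Map1lc3a was at 26.5 and 29.0 CPM in the control libraries and at 28.7 and 35.3 CPM in the EGCG libraries, a log2 fold change of 0.20 (95% interval -0.040 to 0.45, adjusted p of 0.509 in edgeR). Gabarap (ENSMUSG00000018567, chromosome 11 from 69991143 to 69994951), a family member that also recruits factors for fusion with the lysosome, was at 616 and 694 CPM in the control libraries and at 774 and 755 CPM in the EGCG libraries. Map1lc3b (ENSMUSG00000031812, chromosome 8 from 121590361 to 121598760), whose protein LC3B is the common marker of autophagosomes, was at 280.4 and 307 CPM under control conditions and at 323 and 339.9 CPM with EGCG. For both genes the groups did not overlap, and control replicate 1 was the lowest library.
The mean of Gabarap was 655 ± 54.5 CPM (SD, n = 2) in the control group and 765 ± 13.2 CPM (SD, n = 2) in the EGCG treatment group. Its log2 fold change of 0.22 (95% interval 0.050 to 0.40, standard error 0.081) had an unadjusted p of 0.0151 and an adjusted p of 0.292 in edgeR. Over the alternatives without a left-out library its adjusted p ran from 0.239 to 0.683. Map1lc3b averaged 294 ± 18.6 CPM (SD, n = 2) and 331 ± 12.2 CPM (SD, n = 2), a log2 fold change of 0.17 (95% interval 0.0086 to 0.34, standard error 0.077) with an unadjusted p of 0.0406 and an adjusted p of 0.391 in edgeR. Its adjusted p over those alternatives ran from 0.214 to 0.751. Without control replicate 1 the log2 fold changes became 0.15 for Gabarap and 0.12 for Map1lc3b, with unadjusted p of 0.125 and 0.225 in edgeR, and without EGCG replicate 2 that of Map1lc3b was 0.14 (0.178).

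The groups did not overlap either for Gabarapl1 and Gabarapl2, GABARAP relatives of lower abundance. Gabarapl1 was at 34.7 and 39.8 CPM in the control libraries and 40.1 and 42.4 CPM in the EGCG libraries, and Gabarapl2 at 32.5 and 35.6 CPM and at 38.6 and 37.0 CPM. Their log2 fold changes were both 0.15, with 95% intervals from -0.061 to 0.36 and from -0.053 to 0.35 (adjusted p of 0.588 and 0.568 in edgeR). Neither reached an unadjusted p under 0.05. The 4 member genes of the ATG8 family kept a log2 fold change above 0 under each scaling, filter, test and correction tried and with each library left out. With a library left out, the log2 fold change of Gabarapl1 ran from 0.056 to 0.25 and that of Gabarapl2 from 0.091 to 0.22. Summed over these 4 genes, without Map1lc3a, the level was 964 and 1076 CPM in the control libraries and 1175 and 1175 CPM in the EGCG libraries.
The summed neutrophil and MDSC markers given above were likewise lowest in control replicate 1 (59842 CPM). S100a8 (14461 CPM) and S100a9 (22455 CPM) made up most of that sum. Of the listed markers, Mmp8, Ltf and Retnlg were lowest in EGCG replicate 2 and the others in control replicate 1. The part of these markers in the differences of the ATG8 genes was not tested. Part of the exons of Gabarapl1 (28.3%) overlaps a gene on the other strand, and 15.3% of the 31-base words of Gabarapl2 occur in transcripts of other genes, so both counts are uncertain.

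**Figure D3:**
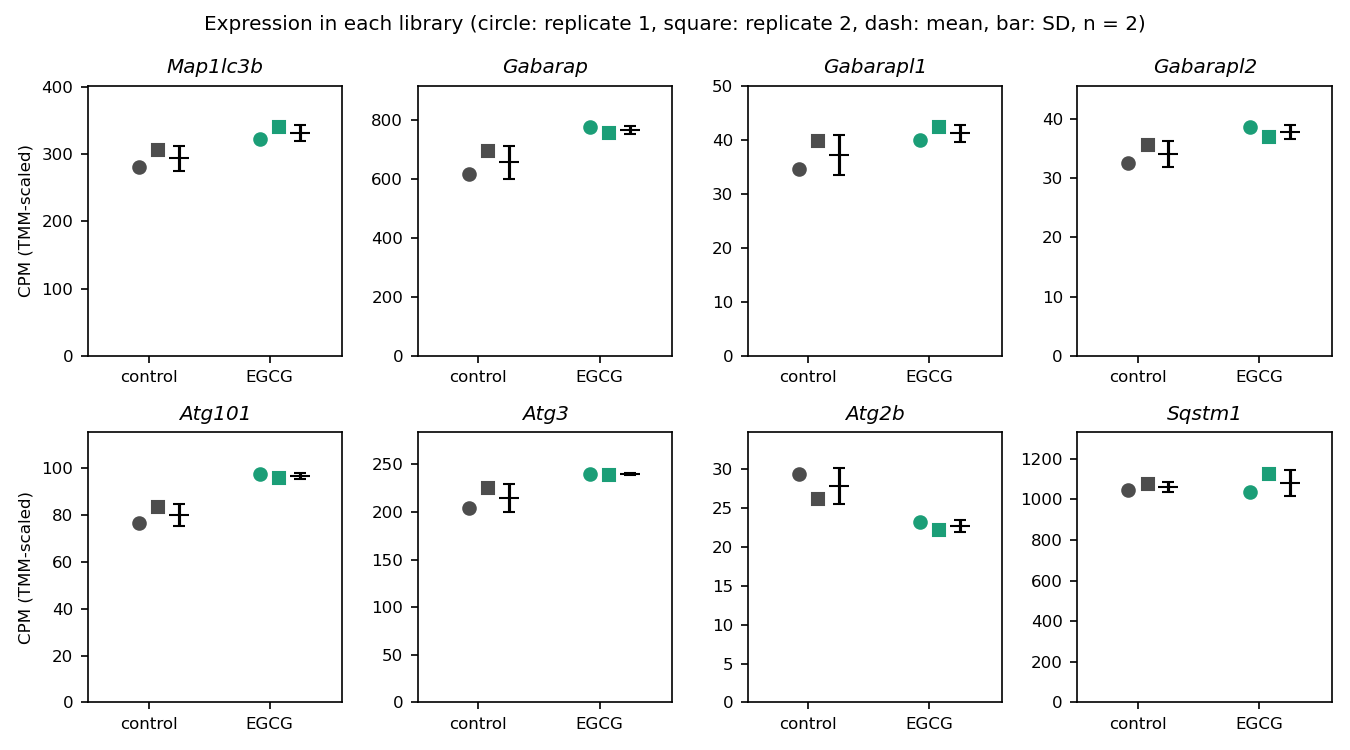
Expression in each library of 8 autophagy genes, in CPM scaled by TMM on axes that start at 0. Circles are replicate 1, squares replicate 2, and the dash and bar beside them give the mean and SD (n = 2). The EGCG libraries lie above the control libraries for the 4 member genes of the ATG8 family, Atg101 and Atg3, below them for Atg2b, and overlap them for Sqstm1.

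The conjugation system held genes on both sides of 0, none of which passed the test. Atg3, which encodes the enzyme that transfers ATG8 proteins to lipid, was at 204 and 225 CPM in the control libraries and at 240.2 and 239 CPM in the EGCG libraries. Atg7, the activating enzyme shared by both conjugation reactions, was at 180.1 and 176 CPM and at 188 and 204 CPM. Atg12, the ubiquitin-like protein that is joined to ATG5, was at 54.3 and 58.5 CPM and at 62.7 and 60.7 CPM. In these 3 genes both EGCG libraries lay above both control libraries, as in 21.5% of all tested genes. The groups of Atg5, with 71.2 and 81.7 CPM against 86.5 and 81.6 CPM, overlapped by a narrow margin.
Log2 fold changes were 0.16 for Atg3 (95% interval -0.0037 to 0.32), 0.14 for Atg7 (-0.021 to 0.30), 0.14 for Atg5 (-0.048 to 0.32) and 0.13 for Atg12 (-0.048 to 0.31), with adjusted p from 0.419 to 0.572 in edgeR. With a library left out, they ran from 0.097 to 0.23 for Atg3 and from 0.083 to 0.20 for Atg7. Those of Atg5 ran from 0.045 to 0.24 and those of Atg12 from 0.083 to 0.19. None of the 4 had an unadjusted p under 0.05 in this fit. That of Atg3 was 0.0388 in edgeR with upper-quartile scaling and 0.0422 with the replicate number as a block. Those of Atg7 and Atg12 came under 0.05 with the length correction described below. Atg16l1, the scaffold that brings the conjugation machinery to the membrane, was lower in both EGCG libraries, with 52.5 and 52.9 CPM against 50.4 and 47.6 CPM and a log2 fold change of -0.10 (95% interval -0.28 to 0.078). Its relative Atg16l2 was at 60.5 and 64.7 CPM against 65.5 and 60.9 CPM, with a log2 fold change of 0.013 and overlapping groups. Atg10, the enzyme that joins ATG12 to ATG5, was close to the limit of useful counting at 2.19 and 2.18 CPM against 2.10 and 2.02 CPM (-0.089).

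Promoter sequences were examined for the E-box CACGTG, the letters within the element bound by the lysosomal regulator TFEB and its relatives. RefSeq windows (GRCm38.p6, 250 bases before to 50 after each listed start) were matched for 31 of the 36 members, not for Atg12, Atg16l1, Becn1, Pik3c3 or Rb1cc1. CACGTG, which reads alike on both strands, occurred in a window of 4 of the 31 genes (12.9%), namely Atg3, Atg5, Atg7 and Atg14, compared with 8.09% of 27025 genes with such windows. The 8-letter form TCACGTGA, which contains the E-box, occurred in Atg3 alone (1.12% of all genes). These 46-base stretches are shown since 3 of the genes belong to the conjugation system just described. Capitals mark the E-box.
Atg3: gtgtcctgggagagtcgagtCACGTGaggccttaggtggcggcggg
Atg5: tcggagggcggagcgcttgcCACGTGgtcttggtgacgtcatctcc
Atg7: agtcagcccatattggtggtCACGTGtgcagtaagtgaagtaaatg
Atg14: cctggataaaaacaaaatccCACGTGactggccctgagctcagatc
They lie at chr16:45158738-45158783 on the plus strand (Atg3), chr10:44268305-44268350 on the plus strand (Atg5), chr6:114670944-114670989 on the plus strand (Atg7) and chr14:47568410-47568455 on the minus strand (Atg14). The Atg3 window holds another E-box upstream. Of the other motifs searched on both strands, the antioxidant response core TGACNNNGC occurred in 5 of the 31 genes (16.1%), beside 3781 of the 27025 genes, namely Atg13, Map1lc3b, Tax1bp1, Ulk2 and Vmp1, while the 10-letter CLEAR element (0.37% of all genes), which contains the E-box, and TGATGNAAT (293 genes) occurred in none of them. A match describes letters only and is not a binding site, and none of these genes passed the test above.

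The ATG4 proteases, which trim ATG8 proteins at the glycine shown above and later release them from lipid, were expressed at modest levels. Atg4b, the main protease for LC3, was at 53.2 and 57.2 CPM in the control libraries and at 56.4 and 57.3 CPM in the EGCG libraries, a log2 fold change of 0.042 (95% interval -0.14 to 0.22, adjusted p of 0.888 in edgeR). Atg4d was the only protease whose groups did not overlap, with 42.4 and 36.7 CPM against 43.0 and 43.3 CPM and a log2 fold change of 0.13 (95% interval -0.080 to 0.33). That log2 fold change ran from 0.027 to 0.24 with a library left out. Atg4a, on the X chromosome, ranged from 10.6 to 11.9 CPM over the 4 libraries and Atg4c from 11.1 to 13.1 CPM, with log2 fold changes of -0.079 and -0.047 and overlapping groups. Of the 31-base words of Atg4a, 60.8% also occur in transcripts of other genes, and 19.3% of the exonic bases of Atg4d overlap a gene on the other strand, so these counts are uncertain.

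In the initiation complex, Atg101 had the smallest p of all members. Atg101 (ENSMUSG00000037204, chromosome 15 from 101284272 to 101290945) encodes the partner that stabilizes ATG13 in the ULK1 complex, and it was at 76.6 and 83.4 CPM in the control libraries and at 97.7 and 95.9 CPM in the EGCG libraries. Its mean was 80.0 ± 4.82 CPM (SD, n = 2) in the control group and 96.8 ± 1.29 CPM (SD, n = 2) in the EGCG treatment group, so the groups were separated by more than the replicate spread. The log2 fold change was 0.27 (95% interval 0.11 to 0.44, standard error 0.079), or 21.0% (7.66% to 35.98%), with an unadjusted p of 0.00352 and an adjusted p of 0.195 in edgeR. Its adjusted p ran from 0.146 to 0.660 over the alternatives with all libraries, and from 0.0580 (control replicate 2 left out) to 0.675 (control replicate 1 left out) over 3 libraries.
The other subunits stayed closer to 0. Ulk1, the kinase that receives signals from mTORC1 and AMPK, was at 258 and 241 CPM in the control libraries and 256 and 246 CPM in the EGCG libraries, a log2 fold change of 0.0083 (95% interval -0.15 to 0.17, adjusted p of 0.979 in edgeR). Its relative Ulk2 was higher in both EGCG libraries (57.9 and 56.8 CPM) than in the control libraries (52.6 and 53.3 CPM), with a log2 fold change of 0.11 and an adjusted p of 0.617 in edgeR. Atg13, the regulatory subunit, was at 62.0 and 55.3 CPM against 63.6 and 61.4 CPM, and Rb1cc1, the large scaffold FIP200, at 132 and 136 CPM against 141 and 127 CPM. Their log2 fold changes were 0.091 and -0.0048, and their groups overlapped.

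In the class III PI3-kinase complex, which makes the lipid PI3P that marks sites of phagophore growth, none of the 6 members had an unadjusted p under 0.05. Becn1, which encodes Beclin 1, was at 152 and 141 CPM in the control libraries and 149 and 154 CPM in the EGCG libraries. The fold change of Becn1 was 0.044 on the log2 scale (95% interval -0.12 to 0.21, adjusted p of 0.866 in edgeR), and 43.9% of its exonic bases overlap a gene on the other strand. The catalytic subunit Pik3c3 (30.7 and 32.5 CPM against 34.6 and 33.4 CPM) lay above control in both EGCG libraries and the scaffold Pik3r4 (35.10 and 35.03 CPM against 32.3 and 34.8 CPM) below. Their log2 fold changes were 0.11 and -0.064, with intervals that include 0. Atg14, which directs the complex to autophagy, was scarce at 10.19 and 8.002 CPM against 9.54 and 8.17 CPM, with a log2 fold change of -0.038. Its alternative partner Uvrag ranged from 102 to 116 CPM and had a log2 fold change of 0.0033, while 17.6% of its exonic bases overlap a gene on the other strand. Ambra1, an adaptor of Beclin 1, ranged from 86.39 to 95.02 CPM, with a log2 fold change of -0.061 and overlapping groups.

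Among the genes for membrane supply, Atg2b was the member with the lowest fold change of the 36. Atg2b (ENSMUSG00000041341, chromosome 12 from 105616136 to 105685211) encodes a rod-like protein that moves lipids into the phagophore, and it was at 29.4 and 26.1 CPM in the control libraries and at 23.2 and 22.1 CPM in the EGCG libraries. Its mean was 27.8 ± 2.32 CPM (SD, n = 2) in the control group and 22.7 ± 0.781 CPM (SD, n = 2) in the EGCG treatment group. The log2 fold change of Atg2b was -0.29 (95% interval -0.52 to -0.067, standard error 0.11), with an unadjusted p of 0.0146 and an adjusted p of 0.289 in edgeR. The adjusted p ran from 0.187 to 0.712 over the alternatives with all libraries. With the length correction described below, the log2 fold change of Atg2b was -0.14 (unadjusted p of 0.199 in edgeR), and without control replicate 1 it was -0.20 (0.137). Without EGCG replicate 2 it was -0.26 (0.0713). Of its 31-base words, 10.6% occur in transcripts of other genes.
Its paralog Atg2a was more abundant and gave closer values, 227 and 214 CPM in the control libraries against 220.4 and 219.6 CPM in the EGCG libraries (log2 fold change -0.0043, 95% interval -0.16 to 0.15, adjusted p of 0.988 in edgeR). The difference between the paralogs was not tested. Atg9a, the lipid scramblase of the vesicles that seed the membrane, was lower in both EGCG libraries (52.1 and 53.6 CPM) than in the control libraries (60.6 and 56.4 CPM), with a log2 fold change of -0.15 and an adjusted p of 0.524 in edgeR. Exons of other genes cover 32.6% of its exonic bases. The PI3P-binding proteins Wipi1 (49.4 to 54.3 CPM) and Wipi2 (79.97 to 84.3 CPM) had log2 fold changes of -0.0011 and 0.035 and overlapping groups. Vmp1, a scramblase of the endoplasmic reticulum, varied more between replicates (155 and 187 CPM against 176 and 156 CPM) than between groups (-0.042).

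None of the 4 cargo receptors had an unadjusted p under 0.05. Their summed level was 1585 and 1676 CPM in the control libraries and 1619 and 1695 CPM in the EGCG libraries, so that the groups overlapped. Sqstm1 (ENSMUSG00000015837, chromosome 11 from 50199366 to 50210827), a receptor for ubiquitin-tagged cargo that is itself degraded by autophagy, was at 1045 and 1077 CPM under control conditions and at 1036 and 1127 CPM with EGCG. The EGCG libraries enclosed the control libraries, and the log2 fold change was 0.027 (95% interval -0.14 to 0.20, adjusted p of 0.927 in edgeR). Exons of a gene on the other strand overlap 17.3% of the exonic bases of Sqstm1. Tax1bp1, a further ubiquitin-binding receptor, was at 385 and 443 CPM against 429.9 and 416 CPM, with a log2 fold change of 0.030. Optn, the receptor optineurin, lay above control in both EGCG libraries (44.8 and 44.7 CPM against 47.0 and 47.6 CPM, log2 fold change 0.079), and Nbr1, a receptor that shares its domain plan with p62, lay below (109.3 and 110.2 CPM against 106.7 and 104.2 CPM, log2 fold change -0.057), with adjusted p of 0.762 and 0.811 in edgeR.

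Fold changes in these libraries went down with the length of genes, and the autophagy genes are of unequal length. Across 14655 tested genes the Spearman correlation of the log2 fold change with exonic length was -0.29, and across the 36 members it was -0.31. These points share the same 4 libraries, and genes are not independent replicates. The 12 shortest members (1597 to 3862 exonic bases, Atg101, Gabarap, Gabarapl1 and Gabarapl2 among them) had a median log2 fold change of 0.11, beside 0.043 for the 4683 tested genes in the same range of length. The 12 longest (7517 to 14690 bases, Map1lc3b, Atg2b and Rb1cc1 among them) had a median of 0.0082, beside -0.089 for 2146 tested genes. Exonic length here counts all annotated exons of a gene and can exceed the length of its principal transcript. That transcript has 2532 bases for Map1lc3b (7517 exonic bases) and 3761 for Atg7 (6968). A correction with the length of the principal transcript was not run.
After a correction for length in each library, 28 members had a log2 fold change above 0 and 8 below 0, beside 8469 of the 14682 tested genes above 0, with a median of 0.12 beside 0.034 over all genes. Under that correction 6 members had an unadjusted p under 0.05 in edgeR, beside 1559 of the 14682 tested genes, and 0 an adjusted p under 0.05. Map1lc3b, with 7517 exonic bases, moved from 0.17 to 0.26, and Rb1cc1, with 14690 bases, from -0.0048 to 0.16, while Gabarap moved from 0.22 to 0.21. Atg7 (0.22, unadjusted p of 0.0125), Atg12 (0.22, 0.0232) and Atg4d (0.21, 0.0418) were the members that came under an unadjusted p of 0.05 in edgeR with this correction only, in addition to Atg101, Gabarap and Map1lc3b.

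**Figure D4:**
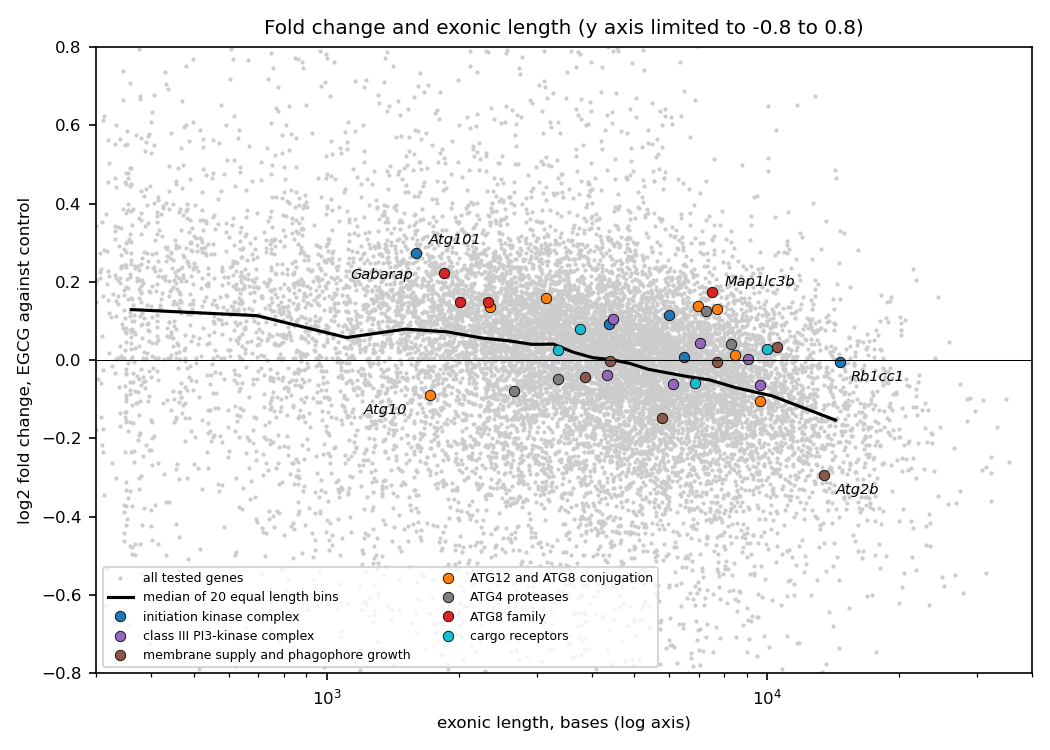
Log2 fold change (EGCG against control, limited to values between -0.8 and 0.8) against exonic length in bases on a log axis. Grey points are all tested genes, the black line joins the medians of 20 bins with equal numbers of genes, and colored points are the 36 autophagy genes by role. The line goes down from short to long genes, with Atg101 above it and Atg2b below it.

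A further 64 tested genes that act around this machinery were taken as the rest of the pathway. None had an adjusted p under 0.05 in edgeR or DESeq2 with all 4 libraries, and 1 (Epg5) had one in edgeR without EGCG replicate 2. At an unadjusted p under 0.05 there were 6 with higher and 3 with lower values under EGCG, beside the same 12.2% of all genes, and the median log2 fold change was 0.035. DESeq2 placed 6 of them under an unadjusted p of 0.05 (922 of all 14682 tested genes). With library size only, edgeR placed 2 with higher and 6 with lower values there, beside 1878 of all 14682 tested genes. The median log2 fold change over all tested genes was -0.032 under that scaling. Without control replicate 1 none of the 64 had an unadjusted p under 0.05 in edgeR.
Upstream, Mtor, the kinase that restrains ULK1 when nutrients are plentiful, was at 60.4 and 54.0 CPM in the control libraries and at 47.9 and 47.6 CPM in the EGCG libraries (log2 fold change -0.26, adjusted p of 0.263 in edgeR). With the length correction the value of Mtor was -0.14 (unadjusted p of 0.132 in edgeR). Of the 10 transcriptional regulators listed, 5 had a log2 fold change above 0 and 5 below 0, from -0.18 to 0.17, with a median of 0.0020, and none had an unadjusted p under 0.05 in edgeR. Tfeb and Tfe3, regulators of lysosome genes, were at 0.024 and -0.011, and their relative Mitf was at -0.18, with 66.6 and 61.6 CPM against 53.4 and 59.8 CPM and an adjusted p of 0.441 in edgeR.

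Of the 16 genes for fusion with the lysosome, 8 had a log2 fold change above 0 and 8 below 0, with a median of 0.017. In edgeR 3 had an unadjusted p under 0.05 (2 higher and 1 lower under EGCG), beside 12.2% of all tested genes. Vamp8, which encodes a SNARE protein of lysosomes and endosomes, was at 198 and 221 CPM in the control libraries and at 247 and 239 CPM in the EGCG libraries (log2 fold change 0.21, adjusted p of 0.295 in edgeR), and Stx7 at 142.5 and 149 CPM and at 161 and 172 CPM (0.19, 0.338). The other SNARE genes listed had overlapping groups, with log2 fold changes of 0.036 for Stx17, the SNARE of mature autophagosomes, -0.038 for Snap29 and 0.055 for Ykt6. Lamp1 and Lamp2, proteins of the lysosomal membrane, had values of 0.14 and 0.12 with adjusted p of 0.478 and 0.612 in edgeR, and both were higher in the EGCG libraries. Epg5, a tether of autophagosomes and lysosomes, was at 39.0 and 32.0 CPM against 25.4 and 32.4 CPM (-0.30, adjusted p of 0.365 in edgeR), and its groups overlapped. The log2 fold change of Epg5 depended on the library and the correction, with -0.48 (adjusted p of 0.0358 in edgeR) without EGCG replicate 2, -0.13 when EGCG replicate 1 was left out, -0.15 when control replicate 1 was left out, and -0.18 with the length correction.
The receptors for mitochondria and endoplasmic reticulum had the highest median of the 5 lists, at 0.093, with 11 of 13 tested genes above 0. Over all tested genes the median was 0.0031 and 50.6% lay above 0, and differences between the lists were not tested. Retreg1, an ER-phagy receptor, was at 157 and 171 CPM in the control libraries and at 185 and 194 CPM in the EGCG libraries (0.21, adjusted p of 0.295 in edgeR), and Pink1, a kinase that tags damaged mitochondria, at 118 and 123 CPM and at 132 and 145 CPM (0.20, 0.330). Tbk1, a kinase that activates Optn and Sqstm1 protein, was at 126.8 and 126.7 CPM against 115 and 107 CPM (-0.19, 0.324). Wdr45, a relative of Wipi1 and Wipi2, was at 26.3 and 26.5 CPM against 30.83 and 31.02 CPM (0.23, 0.368). Bnip3, a mitophagy receptor and the sixth gene with higher values, was at 16.10 and 17.96 CPM against 21.8 and 19.3 CPM (0.27, adjusted p of 0.376 in edgeR).

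**Figure D5:**
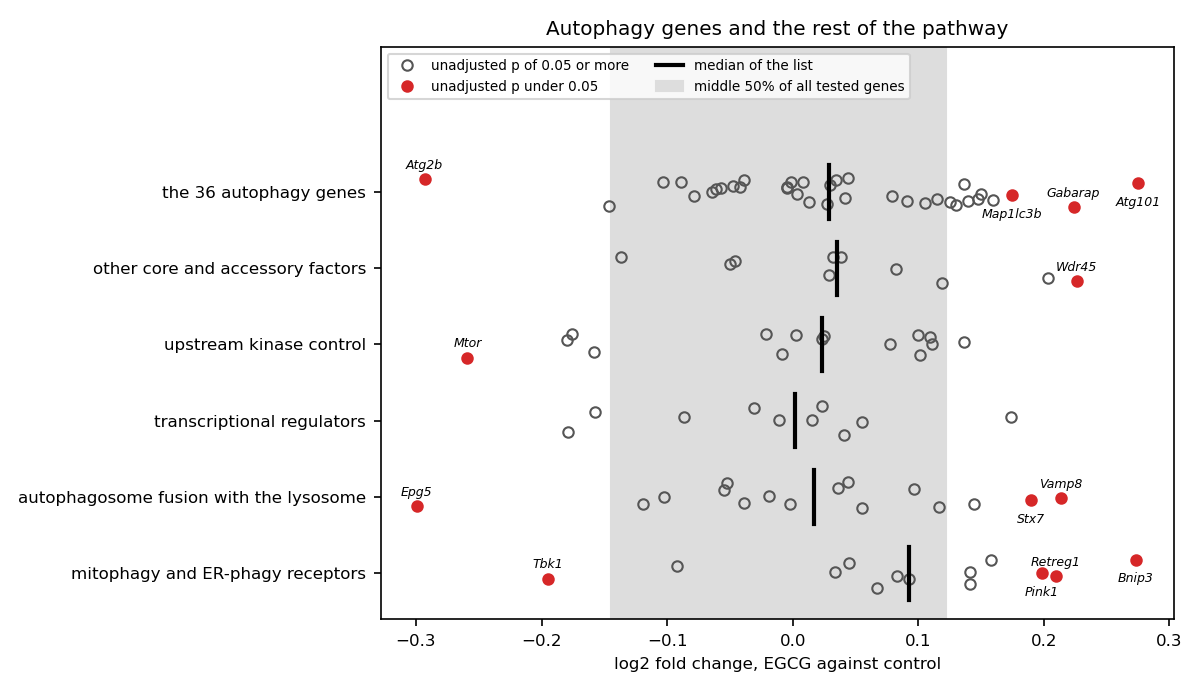
Log2 fold change (EGCG against control) of the 36 autophagy genes and of 64 further pathway genes in 5 lists. Each circle is a gene, red where the unadjusted p of edgeR's test was under 0.05, black bars are list medians, and the grey band holds the middle 50% of tested genes (-0.14 to 0.12). The list medians all lie inside the band, and the red circles lie outside it on both sides.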

How the data were processed

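RNA-seq counts of 4 libraries were analysed, with groups taken from the labels. The authors mapped reads to GRCm38 with STAR 2.6.0c, assigned them to genes of Ensembl release 91 with unstranded featureCounts 1.6.2 and deposited the raw whole-number counts. From these, genes were filtered (filterByExpr, minimum count of 10), scaled by TMM and compared with edgeR 4.0.16 (R 4.3.3). Intervals of 95% use the moderated degrees of freedom of the fit. With 2 libraries against 2, an exact permutation test cannot go below p = 0.333. The members and lists were chosen with earlier results of these data known. Named by rule were all members, with full statistics for those with an unadjusted p under 0.05 and the most abundant of each role. Of the pathway lists, up to 5 genes per direction with an unadjusted p under 0.05 and 6 preset genes were named; Bnip3, Map1lc3a, Mitf, Snap29 and Ykt6 were added after their values were seen. 1 listed gene is not reported here.

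GENCODE M21 (GRCm38) gave positions and lengths for 53274 of the 53465 genes. For the length correction, a loess curve (span 0.4) of log count on log exonic length was fitted per library and used as an offset. DESeq2 1.42.0 was an alternative, with other filters, scalings, a replicate block and left-out libraries. The code was tested on simulated data. Without strand, genes that overlap on opposite strands cannot be told apart.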

Additional observations from a re-analysis of the deposited data

How the results depend on the processing

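Of the 36 autophagy genes, 0 had an adjusted p under 0.05 in edgeR or DESeq2 under any of the 14 alternatives, left-out libraries included, and 19 kept the sign of their log2 fold change under all of them. The genes called among all tested genes moved from 22 to 0 with no filter on low counts (1795 had an unadjusted p under 0.05 in edgeR), 151 with library size only, 11 with upper-quartile scaling, 63 with edgeR's robust fit, 5 with the length correction, 64 with DESeq2, and 77 to 354 with a library left out. The member median of 0.029 became -0.0057 with library size only and 0.12 with the length correction, and was 0.046 to 0.054 with a library left out. The median over all tested genes was 0.0031 in the fit used above, -0.032 with library size only and 0.034 with the length correction. Members with an unadjusted p under 0.05 numbered 2 to 7 and pathway genes 0 to 16 with a library left out (pathway genes 0 without control replicate 1 and 16 without control replicate 2), beside 995 of 15264 tested genes without control replicate 1 and 2200 of 15325 without control replicate 2.

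Little pairing of the samples by replicate number was seen (correlation of their deviations of 0.034 over all tested genes). This value cannot show that the samples were unpaired, since noise in genes with low counts also lowers it. With the number as a replicate block, 30 genes and 0 members were called. An unadjusted p under 0.05 in edgeR was then found for 5 members, beside 1854 of 14682 tested genes. The replicate block together with the length correction gave 4 called genes, 7 members with an unadjusted p under 0.05 (beside 1634 of 14682 tested genes) and a member median of 0.12 (beside 0.033 over all genes).

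Log2 fold changes that changed sign were all uncalled. With no filter, Wipi1 was 0.0021. Library size only gave -0.028 for Ulk1, -0.031 for Uvrag, -0.00077 for Wipi2, -0.022 for Atg16l2, -0.0076 for Sqstm1, -0.0038 for Tax1bp1 and -0.011 for Tfeb. Upper-quartile scaling gave 0.0030 for Rb1cc1, 0.0028 for Atg2a and 0.0061 for Wipi1. The length correction gave 0.16 for Rb1cc1, 0.050 for Pik3r4, 0.084 for Atg2a, 0.028 for Wipi1, 0.010 for Atg16l1, 0.017 for Nbr1 and 0.098 for Tfe3, and with the replicate block added 0.16, 0.049, 0.084, 0.029, 0.0099, 0.017 and 0.098. With a library left out, the values ran from -0.036 to 0.062 for Ulk1, -0.081 to 0.071 for Rb1cc1, -0.0094 to 0.11 for Becn1, -0.20 to 0.15 for Atg14, -0.095 to 0.099 for Uvrag, -0.044 to 0.044 for Atg2a, -0.065 to 0.074 for Wipi1, -0.17 to 0.10 for Vmp1, -0.038 to 0.066 for Atg16l2, -0.0048 to 0.096 for Atg4b, -0.15 to 0.053 for Atg4c, -0.034 to 0.089 for Sqstm1, -0.063 to 0.14 for Tax1bp1 and -0.042 to 0.090 for Tfeb. The cause of these shifts was not tested. Leaving out 1 library leaves a lone library that is assumed to vary like the other group.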
